A study of Mus musculus with 4 samples.

Results

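The genes examined here encode glutamate receptors and the auxiliary subunits that assemble with them, and the data are CTCF peaks from cultured mouse cortical neurons. The 37 genes were taken by name from 21774 protein-coding genes of the RefSeq annotation of GRCm38.p6. They comprised 4 AMPA receptor genes (Gria1 to Gria4), 7 NMDA receptor genes (Grin1, Grin2a to Grin2d, Grin3a, Grin3b), 5 kainate receptor genes (Grik1 to Grik5), the delta receptor gene Grid1, 7 metabotropic receptor genes (Grm2 to Grm8) and 13 genes of auxiliary subunits. The neurons were wild type, taken from Swiss-Webster embryos at day 16 and kept in culture for 13 days. CTCF was immunoprecipitated from 2 biological replicates, 2 input libraries were sequenced beside them, and none was treated, although the culture text names etoposide. The deposited values are 1 list of 33820 peaks found in both immunoprecipitations, of which 33815 lay on assembled chromosomes. With 1 condition and 1 joint list, no groups could be compared and no test was made. Read depth is unknown from this list, and the labelled cell type could not be checked, since the list holds no expression values.

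CTCF, a DNA-binding protein with many zinc fingers, recognises a long motif and halts cohesin, and pairs of its sites often anchor chromatin loops. AMPA, NMDA and kainate receptors are ion channels opened by glutamate, which carry fast excitatory transmission in the cortex. NMDA receptors also admit calcium, and exchange of their GluN2 subunits accompanies the maturation of cortical synapses. Metabotropic receptors couple to G proteins and adjust transmitter release and excitability. Auxiliary subunits set the trafficking and gating of the channels.

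A peak was placed by its summit and counted as an end peak when it lay within 1 kb of either end of a gene, as a body peak when it lay between the gene's start and end, and as a flank peak when it lay outside by more than 1 kb and up to 50 kb. In all, 161 peaks lay within 50 kb of a member, 70 of them in gene bodies, 18 at ends (13 of these also inside the body) and 86 in flanks. No peak was counted for more than 1 member. Strength here means the authors' joint value for a peak, in which its −log10 p from the first and second replicate columns are added. The median strength of all peaks on chromosomes was 165.5, and that of the 161 peaks was 178.6.

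A peak at an end was found in 17 of the 37 genes (45.9%), beside 29.2% of all protein-coding genes. The members had a median length of 122.8 kb, with 17.2 kb over all protein-coding genes, and longer genes had an end peak more often. At the shares of their 5 length classes, 14.4 of the 37 would have had one. No member under 10 kb had an end peak (0 of 2, with 21.5% of all genes of that length). The members of 10 to 30 kb had 2 of 6 (29.6% of all such genes), those of 30 to 100 kb had 3 of 8 (33.7%), and those of 100 to 300 kb had 4 of 9 (41.8%). Over 300 kb the count was 8 of 12 (47.8%). Up to 300 kb the members' shares thus stood near those of other genes of their length, and most of the excess over the class shares lay in the 12 longest, for which 5.73 genes would be the count at the class share.

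By subfamily, the count was 1 of 4 AMPA, 3 of 7 NMDA, 3 of 5 kainate, 4 of 7 metabotropic and 5 of 13 auxiliary genes, and Grid1. At the class shares it would be 1.79 AMPA, 2.52 NMDA, 2.19 kainate, 2.78 metabotropic and 4.64 auxiliary genes, and 0.48 for Grid1. No gene had a peak at both ends. The nearest summit to an end lay 106 bp away, at Gria4, and the farthest counted lay 948 bp away, at Shisa9. Just beyond the limit stood Grin2c (1065 bp), Grm2 (1209 bp) and Gria2 (1326 bp). Where the RefSeq promoter table gives the strand, 7 end peaks were at the outer bound on the gene's start side and 2 at the bound on its finish side. The other 9 belonged to genes whose strand is not in that table. Neither this split nor the share of genes with peaks at both ends was counted over all protein-coding genes. No preference of these genes can thus be read from them.

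The strongest end peak was at the start of Neto2, which encodes an auxiliary subunit of kainate receptors. Its values were 664.8 in the first and 486.5 in the second replicate column, a strength of 1151, the 487th highest of the list. The start of Grik4, which encodes the high-affinity kainate subunit GluK4, had 493.6 and 566.5. The upper-coordinate end of Grin3a, which encodes an NMDA subunit that lowers calcium entry, had 553.4 and 486.0. These 3 peaks stood above 98% of the list in strength (98.6, 98.2 and 98.1 as percentiles).

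Grm8, which encodes a presynaptic metabotropic receptor, had 348.4 and 452.8 at a summit 922 bp before its start. Grik5, which encodes GluK5, a partner of other kainate subunits, had 315.4 and 309.5 at its finish. Grin2b, which encodes the GluN2B subunit abundant in young cortex, had 152.1 and 269.2 at its upper end. The upper end of Grm4, a presynaptic metabotropic receptor gene, had 151.3 and 142.3. These 7 end peaks were the ones above the median strength of the list.

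The other 11 end peaks were weaker than that median, with strengths from 44.5 at Shisa7 to 159.9 at Shisa6. Strength leans on the second column, which was the higher in 90.7% of all peaks. In the first column alone, Shisa7, Grik3, Neto1 and Grin1 were below its median of 30.9, and the rest of the 11 were above it. Shisa6, Shisa7 and Shisa9 encode membrane proteins that bind AMPA receptors, and Shisa9 had 95.7 and 60.8. Grid1, which encodes a delta receptor that binds cerebellins across the synapse, had a pair of peaks at its lower end, of 159.8 and 50.8 in strength. Grm5 (strength 105.6), Grm7 (88.4), Gria4 (77.2), Grik3 (54.2), Neto1 (49.2) and Grin1 (46.1) completed the set. Grm7 was uneven between columns, with 68.5 in the first and 19.8 in the second.

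Over the 18 end peaks the columns were nearly level, with a median log2 ratio of second to first column of 0.06. Over the 57 peaks deeper inside members that median log2 ratio was 1.81. For all protein-coding genes the median log2 ratios were 0.40 at ends and 1.95 deeper inside. The first column was the higher in 8 of the 18 end peaks (44.4%), compared with 28.9% of end peaks of all protein-coding genes.

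**Figure D1:**
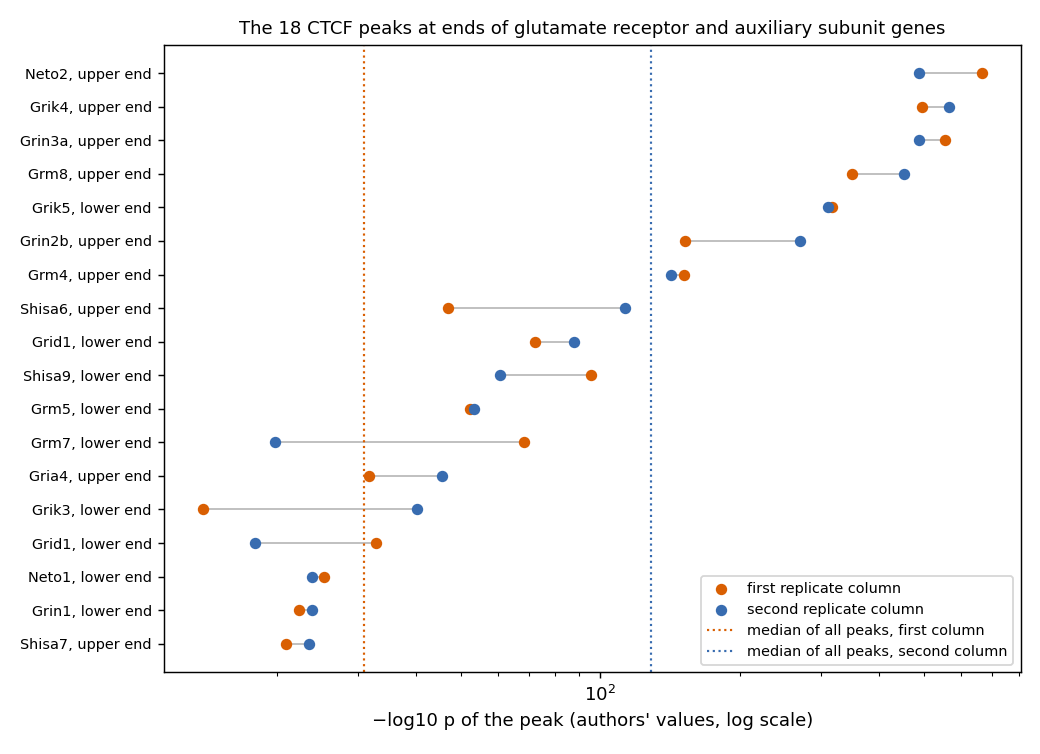
The −log10 p of the 18 end peaks (log axis) in the first and second replicate columns, with 1 row for each peak and the strongest on top; dotted lines mark the medians of all peaks in each column (30.9 and 128.9). The 7 uppermost rows lie right of both lines, from Neto2 down to Grm4, and the points of most rows lie close together.

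An annotated start can lie inside the outermost bound of a gene, so summits were also measured from the starts of the RefSeq promoter table, which held 24 of the 37 members. Among all protein-coding genes in that table, of every length, 27.2% had a summit within 1 kb of a listed start. Of the 24 members, not matched for length, 8 (33.3%) had one. The nearest were Grik2 (21 bp), Cnih3 (46 bp) and Gria4 (106 bp), followed by Grik4 (205 bp), Neto2 (296 bp), Grm7 (443 bp), Shisa7 (648 bp) and Grm8 (922 bp). Grik2, which encodes the kainate subunit GluK2, and Cnih3, which encodes an AMPA receptor cornichon, were not among the genes with an end peak, since their listed starts lie over 1 kb inside their outer bounds. Both starts carried peaks below the list's median strength, with 35.3 and 35.6 at Grik2 and 36.8 and 44.1 at Cnih3. Their first-column values were above that column's median (30.9), and their second-column values were below the median there (128.9). Grik3 went the other way, with an end peak 675 bp from its outer bound but 1112 bp from its listed start.

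The 5 promoters with a summit inside or within 300 bp of the window are printed here, since they are the sequence under or beside the peaks at receptor gene starts. Each runs 5′ to 3′ on the gene's strand, from 250 bases before the start to 50 after it, and is taken from RefSeq (GRCm38.p6). Capitals mark matches to AGGGGGC or AGGTGGC or AGATGGC or AGAGGGC, 4 words of 7 letters from the core of the CTCF motif, searched on both strands.
Grik2, chr10:49788705-49789004, minus strand: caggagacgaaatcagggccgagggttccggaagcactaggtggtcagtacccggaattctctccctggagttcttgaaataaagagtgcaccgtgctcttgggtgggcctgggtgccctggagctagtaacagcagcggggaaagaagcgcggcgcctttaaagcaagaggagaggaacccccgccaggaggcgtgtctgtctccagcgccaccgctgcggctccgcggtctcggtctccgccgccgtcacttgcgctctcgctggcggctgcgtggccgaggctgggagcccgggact
Cnih3, chr1:181352378-181352677, plus strand: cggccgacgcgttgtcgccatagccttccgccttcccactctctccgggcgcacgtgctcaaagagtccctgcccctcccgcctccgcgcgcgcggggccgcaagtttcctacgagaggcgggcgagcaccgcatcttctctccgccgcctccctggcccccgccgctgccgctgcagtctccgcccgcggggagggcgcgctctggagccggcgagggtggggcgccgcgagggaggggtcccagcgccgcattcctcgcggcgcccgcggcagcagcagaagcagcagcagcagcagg
Gria4, chr9:4796185-4796484, minus strand: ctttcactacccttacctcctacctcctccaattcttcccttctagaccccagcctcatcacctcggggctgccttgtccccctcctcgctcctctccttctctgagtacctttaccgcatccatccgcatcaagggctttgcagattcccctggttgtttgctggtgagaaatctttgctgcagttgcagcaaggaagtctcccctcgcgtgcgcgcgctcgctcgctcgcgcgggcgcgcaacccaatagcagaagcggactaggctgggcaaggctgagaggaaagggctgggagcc
Grik4, chr9:42944322-42944621, minus strand: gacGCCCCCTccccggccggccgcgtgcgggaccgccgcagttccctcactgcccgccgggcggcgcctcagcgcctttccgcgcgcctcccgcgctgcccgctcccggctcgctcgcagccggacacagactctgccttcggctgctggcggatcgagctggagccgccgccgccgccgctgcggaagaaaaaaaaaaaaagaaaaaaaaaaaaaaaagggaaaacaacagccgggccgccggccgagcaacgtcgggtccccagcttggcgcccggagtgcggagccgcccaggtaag
Neto2, chr8:85700875-85701174, minus strand: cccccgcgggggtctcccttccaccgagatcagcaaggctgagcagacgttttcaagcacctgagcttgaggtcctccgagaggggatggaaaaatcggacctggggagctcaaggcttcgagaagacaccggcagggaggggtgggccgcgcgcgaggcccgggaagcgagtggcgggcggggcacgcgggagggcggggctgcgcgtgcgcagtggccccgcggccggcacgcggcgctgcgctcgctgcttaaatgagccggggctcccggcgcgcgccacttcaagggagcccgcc

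These windows were rich in G and C, from 59.7% at Gria4 to 75.3% at Cnih3, and held between 17 (Gria4) and 42 (Cnih3 and Grik4) CG pairs. The Grik4 window held 1 match, to AGGGGGC on the opposite strand, with its first base at position 4 of the window. The Grik4 summit lay 205 bp before the start, inside the window. No match was in the other 4 windows, which says only that these words are not in these 300 bases. Of the 29 windows listed for members, 9 (31.0%) held a word, beside 27.6% of all 32851 windows in the table. Of the 11 member windows with a peak over them, 3 (27.3%) held a word, beside 41.8% of all 6632 windows with a peak over them. Grm7 and Grm8 each gave a pair of the 11 under the same peak, and the Grm7 pair overlap, so the 11 are not separate promoters.

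Inside gene bodies, 28 of the 37 genes (75.7%) had a summit, compared with 44.6% of all protein-coding genes. At the shares of their length classes, 27.4 of the 37 would have had one. The count was 1 of 2 members under 10 kb (18.5% of all such genes), 3 of 6 of 10 to 30 kb (43.5%), 5 of 8 of 30 to 100 kb (65.4%), 7 of 9 of 100 to 300 kb (86.5%) and 12 of 12 over 300 kb (94.8%). Having any body peak was thus about as frequent as in other genes of the same length. Across the 37 genes the number of body peaks and gene length had a Spearman rho of 0.42 as a description. Across all 21774 protein-coding genes it was 0.56, and among the 21 members of 100 kb or more 0.10.

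The 37 genes span 8.83 Mb and held 70 body peaks, 0.79 per 100 kb. At the densities of their length classes they would have held 96.3. When each member was set instead beside the 100 protein-coding genes just shorter and the 100 just longer than itself, the sum was 95.8. The shortfall was uneven. The 12 members over 300 kb held 33 peaks, where genes nearest in length would hold 56.1, while the 8 members of 30 kb or less held 7, where such genes would hold 4.34. Of the 37 genes, 16 stood below the median of the genes nearest in length, 12 above it and 9 at it.

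**Figure D2:**
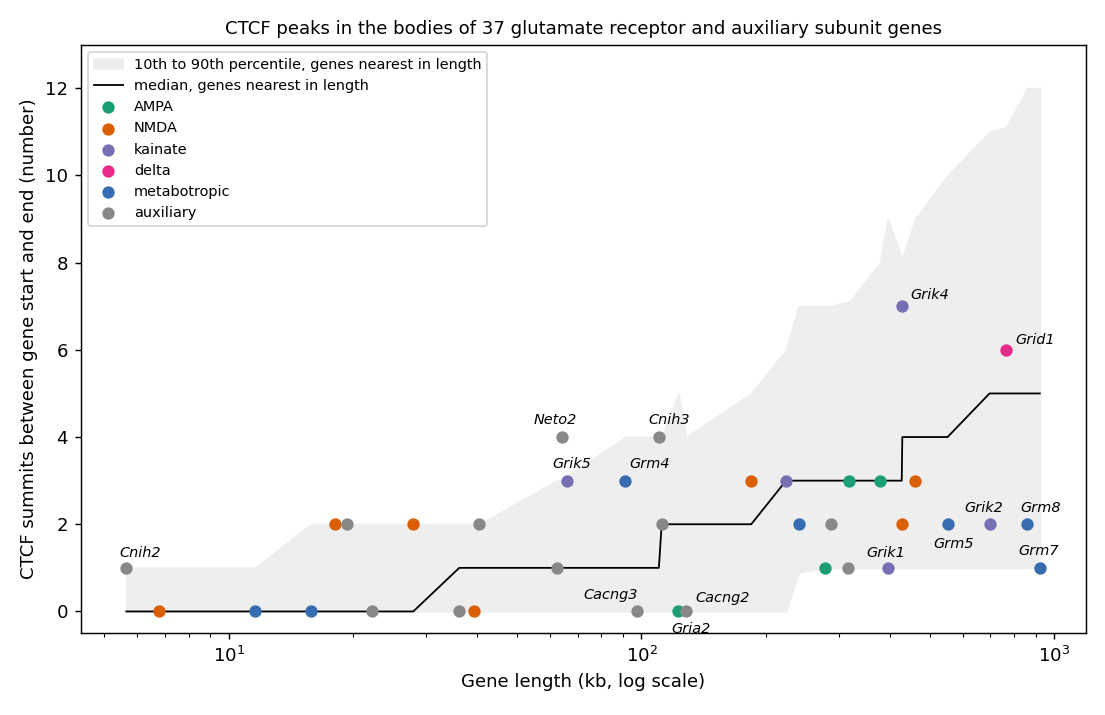
Body peaks of each of the 37 genes (vertical axis, number of summits) by gene length (horizontal axis, kb, log scale), coloured by subfamily. The line is the median and the grey band the 10th to 90th percentile of the 100 shorter and 100 longer genes nearest in length (fewer are longer than Grm7 and Grm8); Neto2 with 4 peaks lies above the band, and Grm7 with 1 peak lies at its lower edge.

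Among AMPA receptor genes, which encode the main fast excitatory channels, bodies held 7 peaks, where genes nearest in length would hold 13.8. Gria1, of 319 kb, had 3, with strengths of 83.7, 53.1 and 364.0 from the lower to the upper end. Gria4, of 378 kb, also had 3, and Gria3, of 278 kb on the X chromosome, had 1. Gria2, which encodes the subunit that makes these channels calcium-impermeable, had none in its 123 kb. Its nearest summit lay 1326 bp beyond its upper end, with 14.5 in the first and 200.9 in the second column. No AMPA gene exceeded the median of the genes nearest in length, which was 2 for Gria2 and 3 for the others.

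NMDA receptor bodies held 12 peaks, where genes nearest in length would hold 13.7. Grin1, which encodes the obligatory GluN1 subunit, had 2, the stronger 1894 bp inside its lower end with 109.9 and 504.8. Both lay within or at the annotated Grin1os, whose symbol marks it as the opposite-strand transcript. Grin2c had 2 body peaks in 18.1 kb, with 95.8 and 96.1 near its lower end and 105.6 and 135.7 near its upper end. Of the 200 genes nearest in length to Grin2c, 22 had as many or more.

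The long GluN2 genes Grin2a and Grin2b stood below the median of genes nearest in length, which was 4 for each. Grin2a, which encodes the subunit that rises as synapses mature, had 2 in 428 kb, with a summit of 690.7 in strength 2197 bp inside its upper end and a weak one of 63.2 mid-gene. Grin2b had 3 in 460 kb, with strengths of 180.4, 397.2 and 61.3. Grin3a had 3 in 184 kb, with a median of 2 in genes of its length. Grin2d and Grin3b had none, though Grin2d had a summit 1560 bp beyond its upper end (strength 629.8), which is also at an end of Kdelr1.

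Kainate receptor bodies held 16 peaks, where genes nearest in length would hold 18.3, and the family's genes differed widely. Grik4 (chromosome 9, 42518182 to 42945000) had 7, the most of any member, at 1.64 per 100 kb. From the lower to the upper end they had strengths of 548.9, 278.9, 174.8, 89.8, 40.3, 59.7 and 1060. Of the 200 genes nearest in length to Grik4, 40 had as many or more. Grik5 had 3 in 65.8 kb, with strengths of 624.9, 682.2 and 508.3, all above the 90th percentile of the list. Grik3 also had 3, in 224 kb.

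Grik1 and Grik2 lay at the other end. Grik1, which encodes GluK1, had 1 peak in 395 kb (strength 305.2), and 36 of the 200 genes nearest in length had as few or fewer. Grik2 (chromosome 10, 49093680 to 49790161) had 2 in 696 kb, 1386 and 5086 bp from its upper end, with strengths of 70.9 and 145.0. The remaining 691 kb, 99.3% of the gene, held no summit. That stretch belonged to an interval of 3549 kb between neighbouring summits, the 11th longest of 33794 such intervals in the genome, whose median was 26.8 kb.

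Grid1 had 6 body peaks in 763 kb, where genes nearest in length would hold 5.31. From the lower end they had strengths of 159.8, 464.7, 111.4, 35.0, 73.7 and 136.4, and the last 257 kb held none. Its longest stretch free of summits covered 33.7% of the gene, which among the 12 members over 300 kb was the smallest share after Grik4 (26.9%), and the median of all 557 genes over 300 kb was 56.5%.

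Metabotropic receptor bodies were the most sparsely occupied, with 10 peaks in 2.69 Mb, 0.37 per 100 kb. Genes nearest in length would hold 23.2. Most of the shortfall came from Grm7, Grm8 and Grm5. Grm7 (chromosome 6, 110645349 to 111567230), which encodes a presynaptic receptor of the active zone, had its end peak as its single body peak in 922 kb. Of the 168 genes nearest in length to Grm7, 19 had as few or fewer, but these genes ran from 575 to 2390 kb. Beyond that peak 921 kb of the gene held no summit, and the interval reached 1119 kb to the next summit, the 196th longest of 33794. Longer intervals than this also overlapped Gria3 (2806 kb, 26th) and Grm8 (1890 kb, 61st), with 214 and 383 kb inside those genes.

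Grm8 had 2 body peaks in 860 kb, with strengths of 195.2 and 35.9. Of the 186 genes nearest in length, which ran from 557 to 2390 kb, 38 had as few or fewer. Grm5, which encodes a postsynaptic receptor coupled to calcium release, had 2 in 551 kb, both within its first 2416 bp from the lower end, and 549 kb beyond them held none. Grm3 had 2 in 240 kb, with strengths of 52.9 and 145.2. Grm4 had 3 in 91.4 kb, where the median of the 200 genes nearest in length was 1 and 57 had as many or more. Grm2 and Grm6, of 11.6 and 15.8 kb, had none.

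**Figure D3:**
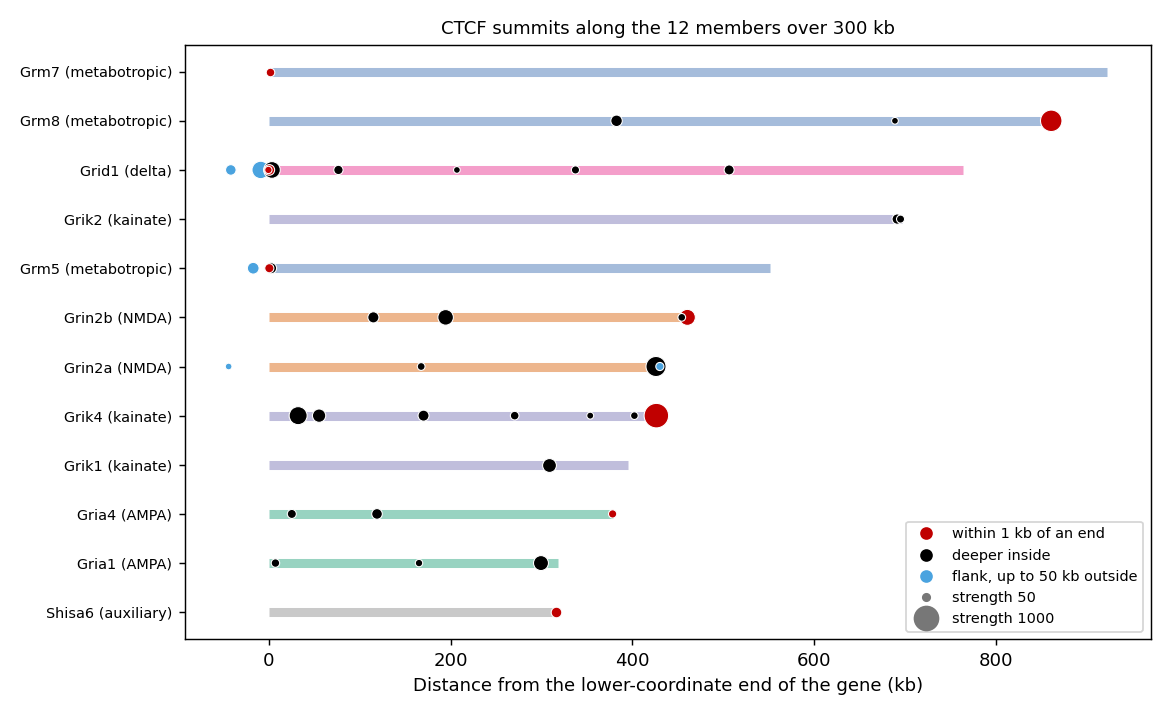
Summits along the 12 members over 300 kb, drawn to scale from the lower-coordinate end (kb), longest gene on top. Red points are end peaks, black points lie deeper inside, blue points are in the 50 kb flanks, and point area grows with strength; Grm7, Grik2 and Grm5 are empty over 921, 691 and 549 kb, while Grik4 carries 7 summits along its length.

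Long stretches free of summits were also found in other genes. Of the 12 members over 300 kb, 4 (Grm7, Grik2, Grm5 and Shisa6, 33.3%) had one over more than 90% of their length, as had 99 of all 557 genes over 300 kb (17.8%). By absolute length, Grm7 ranked 14th, Grik2 27th and Grm5 59th among the 557. The median longest stretch was 284.3 kb in the 12 members and 284.5 kb in all 557.

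Auxiliary subunit bodies held 19 peaks, where genes nearest in length would hold 21.6. Neto2 had 4 in 64.2 kb, and of the 200 genes nearest in length to Neto2, 16 had as many or more. A cluster of 3 of them, of 96.4, 197.2 and 55.4 in strength, lay mid-gene within 39.4 to 48.5% of its length. Neto1, the paralogue, had 2 in 112 kb, the stronger at 569.8. Cnih3 had 4 in 110 kb, which at 3.63 per 100 kb was the densest of the members of 100 kb or more. It was followed by Neto1 (1.79), Grik4 (1.64), Grin3a (1.63) and Grik3 (1.34).

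Cnih2, which encodes a cornichon that slows AMPA receptor closing, had 1 body peak in 5.65 kb, with 412.0 and 651.8. At a strength of 1064 it was the strongest body peak more than 1 kb from a gene end among all members. The Shisa genes had 1 (Shisa6), 2 (Shisa7) and 2 (Shisa9). Cacng genes encode transmembrane AMPA receptor regulatory proteins, and 4 of the 6 had no body peak, namely Cacng2 (stargazin), Cacng3, Cacng7 and Cacng8, where 2.08 of the 6 would have none at the shares of their length classes. Of the 200 genes nearest in length, 16% also had none for Cacng2, 25% for Cacng3, 43.5% for Cacng7 and 52.5% for Cacng8. Cacng4 had 1 of 53.6 in strength, and Cacng5 had 2, of 44.5 and 60.8.

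Within 50 kb of the gene, body included, 35 of the 37 members (94.6%) had a summit, with 82.9% among all protein-coding genes. This window widens with gene length, and members were longer (median 122.8 kb, with 17.2 kb over all genes). No share by length class was computed for it. The 2 members without a summit were Cacng7 and Cacng8, neighbours near the end of chromosome 7. The first summit of that chromosome in the list lay at 3601367, 233.1 kb from Cacng7 and 185.1 kb from Cacng8. The 8 members of 30 kb or less had 44 flank peaks, a median of 6 each, with a median of 2 over all protein-coding genes of that length, of which 16.05% had 6 or more. The 12 members over 300 kb had 5 flank peaks, a median of 0, with a median of 1 over all protein-coding genes of that length. Of the 86 flank peaks, 46 lay at an end or in the body of another protein-coding gene, 38 of them in a body. In the whole list, 18501 of the 33815 peaks on chromosomes lay in a protein-coding body. Of the 44 beside the 8 shortest members, 15 lay in no other protein-coding gene and at no end of one. Flank peaks of other genes were not counted in this way, so neither count can be called high or low.

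The strongest peak of the 161 lay 44928 bp below Grin3b, which encodes a glycine-binding NMDA subunit, at the predicted gene Gm40715, with 1408 and 1269. Next came a peak 6963 bp above Grm4, in no annotated gene, with 737.0 and 766.8, and a peak at an end of Klc2, a kinesin light chain gene, 19060 bp above Cnih2, with 593.9 and 709.1. Another, 10023 bp above Grin3b in no annotated gene, had 554.0 and 574.3. Peaks inside Pou2f2, 30259 bp above Grik5, and inside Rin1, 37664 bp below Cnih2, had strengths of 1061 and 956.5. With Neto2, Grik4 and Grin3a at their ends and Cnih2 in its body, these were the 10 strongest. Grm4 had a second strong flank peak 21069 bp above it, with 297.1 and 584.0.

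Body peaks of members had a median strength of 150.0, close to the 147.4 of body peaks in all protein-coding genes. By subfamily the medians were 253.9 in the 16 kainate, 216.5 in the 12 NMDA, 123.9 in the 6 delta, 110.6 in the 19 auxiliary, 102.5 in the 7 AMPA and 97.0 in the 10 metabotropic body peaks. Of the 70, 11 were in the top decile of the list and 40 were below its median. Metabotropic genes thus had the lowest density and the lowest median strength of body peaks among the 6 groups, and kainate genes the highest median strength.

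For comparison, 45 other genes of the glutamate synapse, picked by function, were counted in the same way. An end peak was present in 22 of 45 partners (48.9%), where the shares of their length classes would give 16.05, beside the 17 of 37 receptor and auxiliary genes. In bodies the partners held 145 peaks in 8.69 Mb, 1.67 per 100 kb, where genes nearest in length would hold 94.6. The members, over nearly the same total length, held 70. The partners' excess was in scaffold genes (85 peaks, 50.4 at the density of genes nearest in length) and signalling genes (42 and 25.2). Transporters held 8 (10.0), and the group labelled synaptic organisers held 10 (8.92). That group is mixed, since it includes Gsg1l, Frrs1l and Prrt1, which could also be placed with the auxiliary subunits. Shank2, which encodes a postsynaptic scaffold, had 18 body peaks, where genes nearest in length would hold 4.22. Dlg2 had 11 (12.04 at the density of genes nearest in length) and Dlgap1 had 9 (5.76), beside the 7 of Grik4 (4.11). The strongest partner end peaks were at Plcb1, a phospholipase downstream of metabotropic receptors (1377), Shank2 (1017) and Cbln2, which encodes a cerebellin (954.8). The difference between members and partners was not tested.

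**Figure D4:**
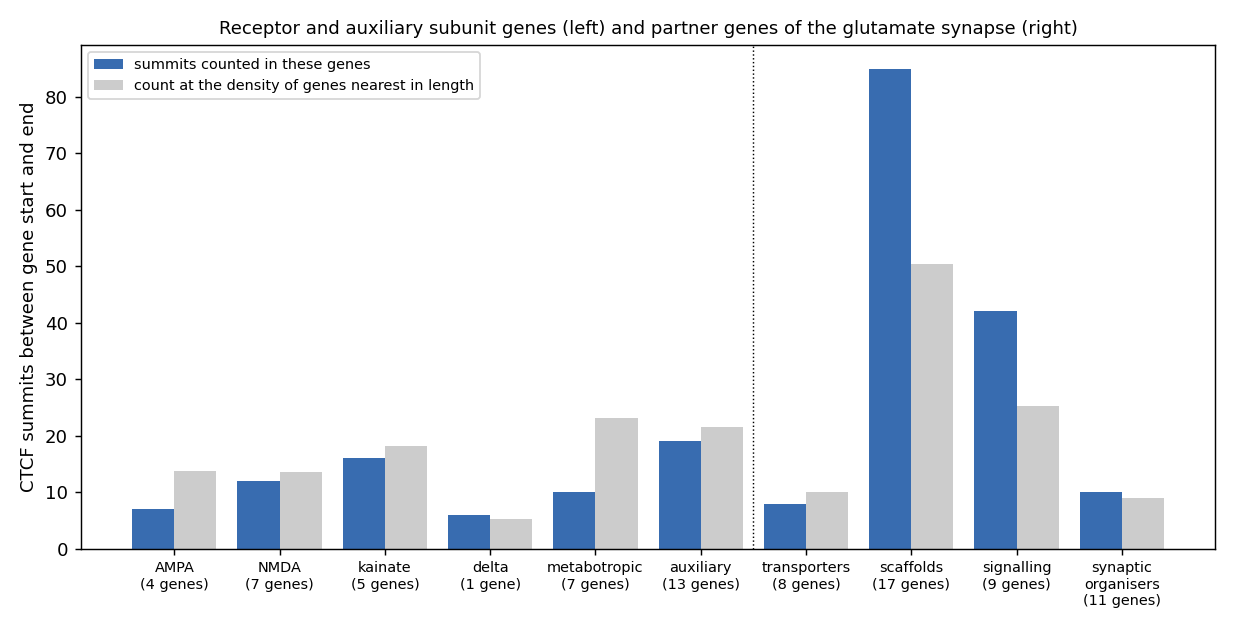
Body peaks counted in each group of genes (blue bars) beside the number at the density of the genes nearest in length (grey bars), with receptor and auxiliary genes left of the dotted line and partner genes right of it. Metabotropic genes show 10 against 23.2 and AMPA genes 7 against 13.8, while scaffold genes show 85 against 50.4.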

How the data were processed

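CTCF chromatin immunoprecipitation was sequenced in 2 replicates with 2 inputs. The submitters' processing notes name MACS2, BWA, SAMtools, Trimmomatic and FastQC, with GRCm38.p6 and mm10 as builds; for versions, thresholds and the use of inputs, nothing is given in the sources used here. In layout, the deposited list is the 20-column output of the IDR program (irreproducible discovery rate, at most 0.05 here). Its −log10 p values per replicate and their sum were made by the authors and depend on depth, which is unknown. Its deposited scores, a rescaled IDR and −log10 IDR, served as a filter. The list does not tie its columns to labelled replicates, and inputs have no values in it.

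Summits were placed on a RefSeq gene table of GRCm38.p6, leaving out 348 genes on scaffolds. Length classes were bounded at 10, 30, 100 and 300 kb. Genes nearest in length (100 on each side) were added after the data were seen. The members and lists were chosen with earlier results of these data known. Members with an end peak, with the most or densest body peaks, near the 10 strongest peaks or with none were named by rule, and others to complete counts. No test was made. Counting was checked on simulated data, 200 genes and 800 peaks, with 0 mismatches. Python 3.11.15, numpy 2.4.6, pandas 2.3.3 and matplotlib 3.10.9 were used. Alternatives were stricter peak filters, each column alone, any base of a peak, and other windows.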

Additional observations from a re-analysis of the deposited data

How the results depend on the processing

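Of 39 recomputed values, 27 stayed within 1.5 times the value reported, or, for the rank correlation, within a nominal error over 37 genes. That error treats the members as independent samples, which they are not, so it does not measure the change in rho. The fall of rho to 0.16 was counted among the 27 on that ground only. The other 12 moved with fewer peaks or other windows. Genes with an end peak numbered 7 of 37 among peaks at or above the median strength (14.9% of all genes) and 7 among peaks in the upper part of the second column, from its median up (13.1%), beside 17 in the whole list. Among the values that stayed, they numbered 13 by the first column from its median up (21.1%) and 12 at an IDR of 0.01 (23.3%). They numbered 9 with windows of 500 bp (20.4%) and 30 with 5 kb (51.3%), and 15 of 36 when ends beside another gene's end were left out (24.0% of all genes with such an end). Body peaks, 70 in the whole list at 0.79 per 100 kb, numbered 30 (0.34) at or above the median strength, 45 (0.51) at an IDR of 0.01, 38 (0.43) by the first column and 32 (0.36) by the second. The Spearman rho of body peaks and length, 0.42 in the whole list, ranged over 6 alternatives between 0.45 with any base of the peak and 0.16 among peaks at or above the median strength. Counts of peaks fall with any stricter filter by construction. Any base of the peak in place of its summit gave 24 genes with an end peak, beside 36.1% of all genes. All these background shares are over genes of every length and were not matched to the longer members. For the main count of 17, length classes gave 14.4. No paired analysis was possible because 1 joint list comes from both replicates and no result comes from a test. Small groups of genes and unknown depth limit every share.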
